A study of Mus musculus with 6 samples.

Results

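The genes described here encode the initiation and elongation factors of translation. They are the 62 rows of the deposited tables whose symbol starts with Eif or Eef followed by a digit, out of 23725 genes, leaving out Eif2s3y and pseudogene symbols. The rule reads symbols alone and uses no measured value. They were read in regulatory T cells (Tregs), a CD4 T cell lineage that holds immune responses in check, taken from lymph nodes of C57Bl/6 mice. All mice of both groups were immunised with myelin oligodendrocyte glycoprotein (MOG), a component of the myelin sheath. The 3 wild-type (WT) libraries come from mice that carry MOG as a self protein. The 3 MOG KO libraries come from mice in which the gene is knocked out in the whole animal, so the loss is not limited to Tregs. Each library was made from 500 cells with 15 cycles of PCR. The labels state neither the age of the mice, nor how the cells were sorted, nor whether each replicate number is a separate mouse. The p-values therefore measure only the spread between these 6 libraries, and that spread may be technical.

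Translation begins when a small ribosomal subunit that carries initiator tRNA is loaded onto the capped end of an mRNA, scans to a start codon and is joined by the large subunit. The eIF4 factors bind the cap and unwind the mRNA, eIF3 and eIF2 load the subunit and the initiator tRNA, and eIF1, eIF1A, eIF5 and eIF5B set the start codon and the joining step. The eEF factors then add amino acids one by one. T cells raise protein synthesis when they are activated, through mTOR signalling to eIF4E, and lower it under stress through kinases that phosphorylate eIF2.

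Gene counts totalled 2717969 to 4472549 per library, so the limit set by a count of 0 (3 counts) equals 0.671 to 1.1 RPM (reads scaled to a common library total). These libraries carry no molecular identifiers, and such limits cover counting error only. Of 4 Treg markers, 3 (Il2ra, Ctla4 and Ikzf2) were at 10 RPM or more in all 6 libraries, while Foxp3 had 326 to 690 RPM in 5 libraries and 8.22 RPM in WT replicate 3. The T cell markers Cd3d, Cd3e, Cd3g and Cd4 summed to 574 RPM in WT replicate 3 and to 1060 to 1483 RPM in the other 5, and Cd3g had 1.42 RPM there against 177 to 272 RPM. The CD8 T cell markers Cd8a and Cd8b1 and all 3 NK cell markers had 0 counts. Of the other marker lists, summed RPM ranged from 0 to 206 for B cells (2 of 5 genes at 0 counts throughout), from 5.78 to 193 for myeloid cells (0 of 5), from 0 to 1.74 for dendritic cells (2 of 4), from 6.71 to 51.3 for red cell precursors (1 of 4) and from 1.98 to 461 for stromal and endothelial cells (1 of 5). Their part in the results was not tested. Mog itself had 0.368 RPM in WT replicate 1 and 0 counts elsewhere, so its level does not check the genotype labels.

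Core promoters were examined because many mRNAs of the translation machinery begin with a terminal oligopyrimidine tract, a run of C and T through which mTOR signalling controls their translation. RefSeq promoter sequences (GRCm38.p6) were matched for 49 of the 62 members. The motif was a run of at least 8 bases, each C or T, on the transcribed strand only, lying from 25 bases before to 50 bases after an annotated start. Shown are 3 genes read in every library that hold such a run, 1 read in every library that does not (Eif5), and 1 that holds a long run but was near 0 in 2 libraries (Eif3a). Capitals mark the longest run of C and T.
Eef1a1: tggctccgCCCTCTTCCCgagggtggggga
Eef2: gtcagcggTCTCTTCCgccgcagccgccgc
Eif3f: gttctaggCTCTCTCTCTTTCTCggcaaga
Eif5: gttgggagggCCTgcggccaataagcggtg
Eif3a: atcacgtggTTCCTTCCTTTCCgtctctgg

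These stretches lie at chr9:78481708-78481737 (minus strand), chr10:81176637-81176666 (plus), chr7:108934403-108934432 (plus), chr12:111538121-111538150 (plus) and chr19:60790644-60790673 (minus). The runs are 10, 8, 15, 3 and 13 bases long. With the annotated start as base 1, they begin at base -5, 15, -4, 31 and 30. The runs of Eef1a1 and Eif3f span the annotated start, and those of Eef2, Eif5 and Eif3a begin after it. Whether transcripts in these Tregs start inside a run, as a terminal tract requires, was not tested. A run of 8 or more was found in 18 of 64 promoter windows of members (28.1%) and in 27.2% of all 32851 windows, so its share among members was near that of promoters at large. By gene, 16 of 49 members (32.7%) and 30.4% of all genes held one in at least 1 window. Among members at 10 RPM or more in every library it was found in 4 of 7 genes and 4 of 12 windows, 6 of which belong to Eif5a, and among those at that level in 1 to 5 libraries in 10 of 36 genes. A run is a description of these letters, and annotated starts can miss the start used in Tregs.

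Members were commonly read at over 100 RPM in some libraries and at almost nothing in others of the same genotype. With presence defined as 10 RPM or more, 53 of the 62 members (85.5%) were present in at least 1 library, against 33.3% of all genes. Present in all 6 were 9 members: Eef1a1, Eef2, Eef1g, Eif5a, Eif1, Eif5, Eif3f, Eif3h and Eif2s2. That is 17% of the members present anywhere, against 8.9% of all such genes (704 of 7909). By level, among genes with a mean of 100 to 200 RPM, 1 of 20 members and 6.94% of other genes were present in all 6, at 200 to 400 RPM 4 of 10 members and 24.9% of other genes, and at 400 RPM or more 4 of 7 members and 76.9% of other genes. Without WT replicate 3, 14 members were present in all of the remaining 5 libraries. In bulk RNA, fewer cells that express a gene and less RNA per cell cannot be told apart.

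**Figure D1:**
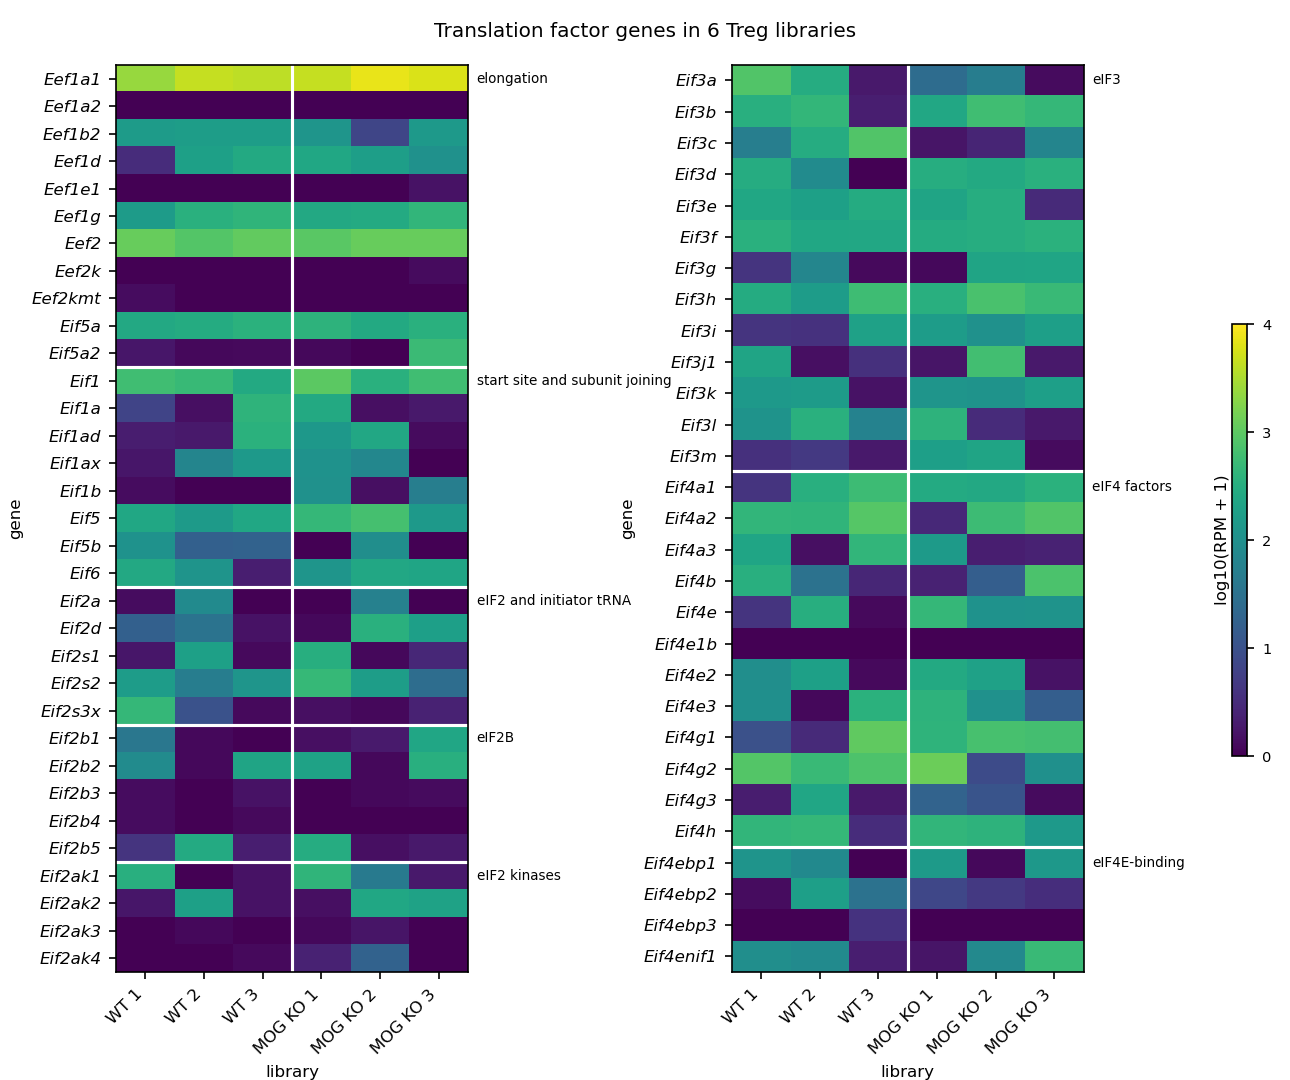
Level of each of the 62 members (rows, grouped by role) in each library (columns, WT left and MOG KO right of the white line), coloured by log10 of RPM + 1. Eef1a1 and Eef2 are bright in every column, while most eIF3, eIF4 and eIF2 genes switch between bright and dark cells within a genotype.

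Levels from 3 to 10 RPM, just under the presence threshold, were rare. Over the 53 members present somewhere, 9 of 318 values (2.83%) lay between 3 and 10 RPM and 101 were under 3 RPM. Of the 208 values at 10 RPM or more, 173 were at 100 RPM or more. Over all genes present somewhere 3.09% of values lay between 3 and 10 RPM. Values under 10 RPM in these 53 members were seldom counts of 0. Of 110 such values, 16 were 0 counts, 84 were 1 to 9 counts and 10 were 10 counts or more. Their median was 2 counts, and whether so few reads mark expression was not tested. The values nearest to the threshold were 8.83 RPM (Eif4g1 in WT replicate 1), 9.17 RPM (Eif2s3x in WT replicate 2) and 9.86 RPM (Eif4g3 in MOG KO replicate 2) below it, and 14.5 RPM (Eif4e3 in MOG KO replicate 3), 14.9 RPM (Eif4b in MOG KO replicate 2) and 15.7 RPM (Eif5b in WT replicate 2) above it.

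The number of members present was 34, 38 and 27 in the WT libraries (replicates 1, 2, 3) against 38, 37 and 34 in the MOG KO libraries. WT replicate 3 had the fewest, and it also had the fewest genes present in the whole table, 2701 against 3265 to 4440. The genotypes overlapped in this count.

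**Figure D2:**
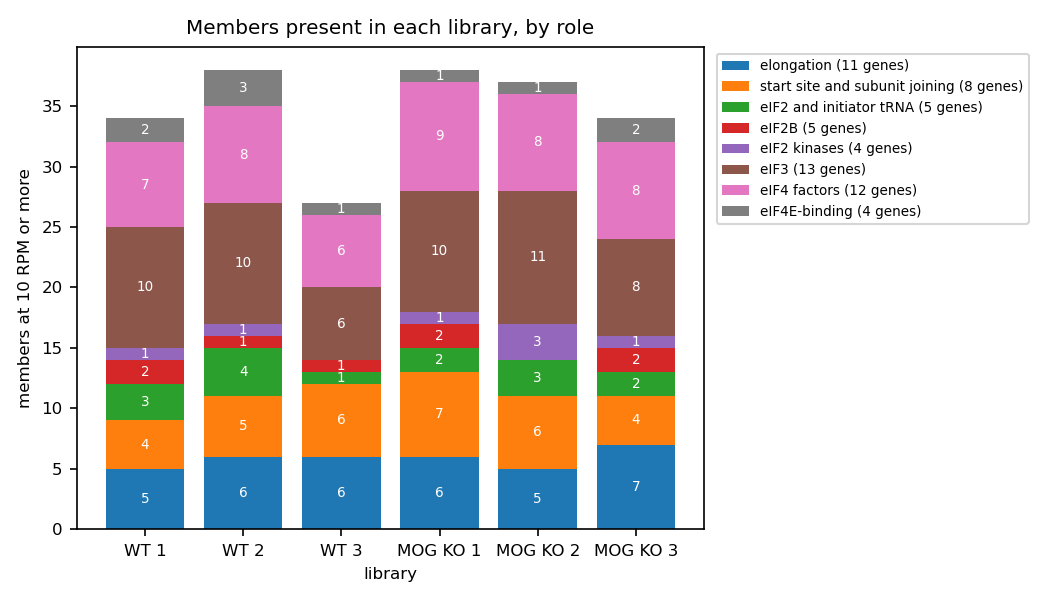
Members at 10 RPM or more in each library (bars, stacked by role, with the number of genes written in each segment and the size of each role in the legend). WT replicate 3 has 27 members present, with 6 of 13 eIF3 genes, and the other 5 libraries have 34 to 38.

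Below, values per library are in RPM, WT replicates 1, 2 and 3 before MOG KO replicates 1, 2 and 3. Each log2 fold change is the MOG KO level over the WT level, with its standard error (SE, n = 3 per group), and p-values are from edgeR's quasi-likelihood test, adjusted by the Benjamini-Hochberg method over all genes tested.

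The elongation factors include the most abundant and the steadiest members. Eef1a1, which brings aminoacyl-tRNA to the ribosome (Entrez 13627, GRCm38 chromosome 9, 78478449 to 78489151), had 2404, 4496 and 4045 RPM in WT against 4423, 7482 and 5920 RPM in MOG KO. It ranked 3 to 9 among all genes of each library. The 2 highest libraries were MOG KO and the lowest was WT, and the groups overlapped, because WT replicate 2 lay above MOG KO replicate 1. Its log2 fold change was 0.64 ± 0.29 with a 95% interval of -0.04 to 1.33 (adjusted p = 1 in edgeR). This was the smallest unadjusted p among members, and the value was positive in every alternative fit, from 0.41 to 0.85 when 1 library was left out.

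Eef2, which moves the ribosome along the mRNA by one codon (Entrez 13629, chromosome 10, 81176631 to 81182498), had 1182, 849 and 1083 RPM in WT against 954, 1156 and 1161 RPM in MOG KO. It was the steadiest member, with a highest value 1.39 times the lowest. Its log2 fold change was 0.01 ± 0.31, its 95% interval was -0.72 to 0.73, and its sign turned with the scaling, to -0.03 with DESeq2 size factors. The kinase that inhibits it, Eef2k, had 1 count in all 6 libraries together, and its lysine methyltransferase, Eef2kmt, also had 1. Both are below the limit set by a count of 0.

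The eEF1B subunits recharge eEF1A with GTP. Eef1g, the gamma subunit (Entrez 67160, chromosome 19, 8967041 to 8978479), had 156, 348 and 408 RPM in WT against 258, 280 and 435 RPM in MOG KO, with a log2 fold change of 0.02 ± 1.15 whose sign turned under 4 other fits and without WT replicate 1 or MOG KO replicate 3. Eef1b2, the beta subunit (Entrez 55949, chromosome 1, 63176825 to 63180486), had 157, 166 and 168 RPM in WT against 123, 5.96 and 142 RPM in MOG KO. The 3 WT values were close together and all lay above the 3 MOG KO values, the lowest of which came from MOG KO replicate 2. Eef1b2 was the only tested member whose groups did not overlap, and it did not pass the test (log2 change -0.93 ± 1.86, 95% interval -5.21 to 3.35, adjusted p = 1 in edgeR). Groups without overlap were found in 1 of 46 tested members with MOG KO lower and in 0 with MOG KO higher, against 4.57% and 5.97% of all tested genes. Without MOG KO replicate 2 its log2 fold change was -0.37. Eef1d, the delta subunit, was present in 5 libraries (106 to 266 RPM) and had 2.21 RPM in WT replicate 1.

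Eif5a, a hypusine-bearing factor that helps ribosomes past stalls (Entrez 276770, chromosome 11, 69916714 to 69921958), was also steady. It had 259, 288 and 353 RPM in WT against 383, 272 and 347 RPM in MOG KO (log2 change 0.08 ± 1.1, adjusted p = 1 in edgeR), with a sign that turned in DESeq2 (-0.08). Its paralog Eif5a2 had 532 RPM in MOG KO replicate 3 and at most 0.736 RPM in the other 5 libraries. Eef1a2, the eEF1A form of nerve and muscle, had 0 counts in every library, and Eef1e1, a scaffold protein of the tRNA synthetase complex, had 2 counts in all. Among 6 tested elongation members 5 log2 fold changes were positive and 1 was negative, with a median of 0.04.

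**Figure D3:**
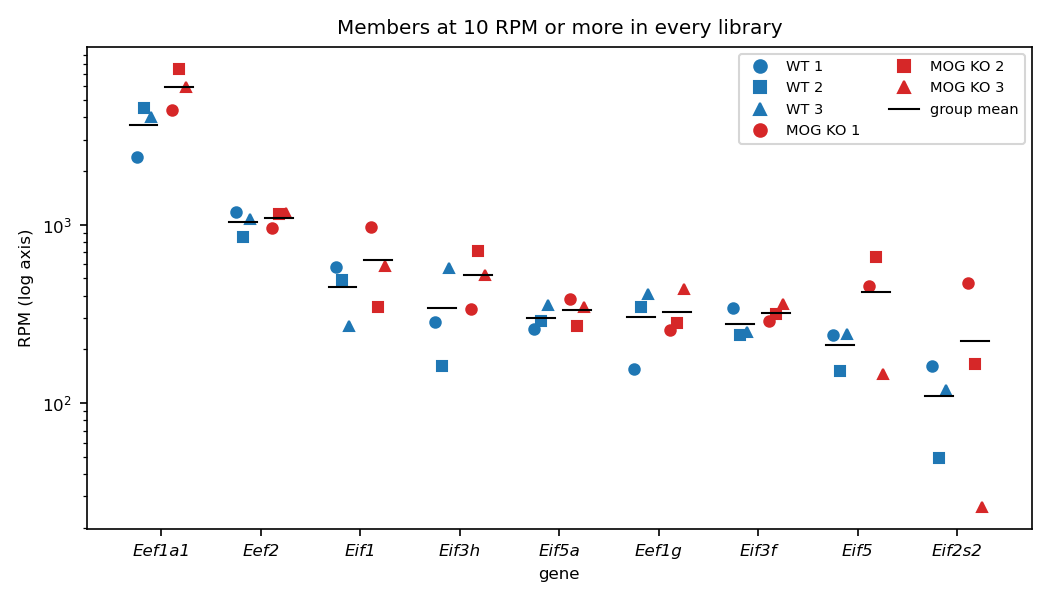
RPM on a log axis of the 9 members at 10 RPM or more in every library, 1 point per library (blue WT, red MOG KO, shape for the replicate number) and a black line at each group's mean. For Eef2, Eif5a and Eif3f the highest library is at most 1.48 times the lowest, and Eif2s2 spans 26.1 to 474 RPM.

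Eif1 and Eif5, which act at the start codon, were read in every library. Eif1, which keeps the scanning subunit open until a start codon is found (Entrez 20918, chromosome 11, 100319885 to 100322096), had 583, 493 and 269 RPM in WT against 968, 347 and 591 RPM in MOG KO (log2 change 0.45 ± 0.65). Eif5, which makes eIF2 hydrolyse its GTP at the start codon (Entrez 217869, chromosome 12, 111538016 to 111546752), had 241, 151 and 243 RPM in WT against 456, 659 and 146 RPM in MOG KO (log2 change 0.91 ± 1.2). For Eif5, 2 of 3 MOG KO libraries lay above all WT libraries and the remaining one lay below them all. Neither passed the test (adjusted p = 1 in edgeR for both).

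The partners of Eif1 were read unevenly. Eif1a and Eif1ax encode forms of eIF1A, which promotes scanning. Eif1a had 394 RPM in WT replicate 3 and 267 RPM in MOG KO replicate 1 and at most 5.52 RPM elsewhere, while Eif1ax had 66.2 to 139 RPM in 4 libraries and 0.736 and 0 RPM in WT replicate 1 and MOG KO replicate 3. The last 2 libraries had neither form at 10 RPM. Eif1b, a paralog of Eif1 (Entrez 68969, chromosome 9, 120492232 to 120495330), had 0.368, 0 and 0 RPM in WT against 103, 0.459 and 50.1 RPM in MOG KO. It had 1 count in WT and 620 in MOG KO, came almost entirely from 2 libraries, and was removed by the filter on low counts before the edgeR test. DESeq2, which does not apply that filter, gave it an adjusted p of 0.0125.

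Eif5b, the GTPase of subunit joining, had 108, 15.7 and 17.3 RPM in WT against 0, 92.2 and 0 RPM in MOG KO, the highest values being 1 library of each genotype. Eif6, which binds the large subunit and keeps it from joining too early, had 256, 116 and 1.13 RPM in WT against 119, 253 and 222 RPM in MOG KO (log2 change 0.68 ± 1.97, adjusted p = 1 in edgeR). For Eif6 the 5 libraries other than WT replicate 3 lay within 116 to 256 RPM, with both genotypes at either end. Eif1ad was present in 3 libraries.

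The 3 subunits of eIF2, which carries initiator tRNA, reached 10 RPM together in 0 of 6 libraries. Eif2s2, the beta subunit (Entrez 67204, chromosome 2, 154871410 to 154892935), was present throughout, at 161, 49.2 and 119 RPM in WT against 474, 166 and 26.1 RPM in MOG KO (log2 change 0.91 ± 1.79, -0.23 without MOG KO replicate 1). Eif2s1, the alpha subunit whose phosphorylation lowers translation, had 0.736, 186 and 0.283 RPM in WT against 320, 0.229 and 1.74 RPM in MOG KO. Eif2s3x, the GTP-binding gamma subunit, had 456 RPM in WT replicate 1, 9.17 RPM in WT replicate 2 and at most 1.45 RPM in the other 4 libraries. WT replicate 2 came nearest, with all 3 read and Eif2s3x just under the threshold. Eif2s3y, the Y-linked gene for the gamma subunit, is outside the member rule. Eif2s1 and Eif2s3x were removed by the filter on low counts and not tested.

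Eif2d, which can deliver initiator tRNA to some ribosomes without eIF2, had 15.8, 32.9 and 0.567 RPM in WT against 0.231, 348 and 182 RPM in MOG KO. The 2 highest values came from MOG KO and the lowest did too (log2 change 3.47 ± 2.63, 95% interval -2.65 to 9.59, adjusted p = 1 in edgeR). Eif2a, another factor with that role, was present in WT replicate 2 (80.7 RPM) and MOG KO replicate 2 (56.6 RPM) alone.

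eIF2B is the complex of 5 subunits that recharges eIF2 with GTP, and it too was complete in 0 of 6 libraries. From 0 to 2 of its 5 genes were present per library. Eif2b2 was present in 4 libraries (82.8 to 338 RPM), Eif2b5 in 2 (274 RPM in WT replicate 2 and 295 RPM in MOG KO replicate 1) and Eif2b1 in 2 (37.9 RPM in WT replicate 1 and 236 RPM in MOG KO replicate 3). Eif2b3 and Eif2b4 had 5 and 2 counts in all 6 libraries together.

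The kinases that phosphorylate eIF2 under stress were each present in at most 3 libraries. Eif2ak1, the kinase that senses low heme, had 338, 0 and 0.567 RPM in WT against 414, 42.9 and 0.869 RPM in MOG KO (log2 change 0.37 ± 3.02). Eif2ak2, the kinase activated by double-stranded RNA and known as PKR, had 0.736, 184 and 0.567 RPM in WT against 0.462, 239 and 201 RPM in MOG KO (log2 change 1.31 ± 2.74, 7.69 without WT replicate 2 and 0.69 without WT replicate 1). Each genotype held both high and near-0 libraries for both kinases, and neither passed the test (adjusted p = 1 in edgeR). Eif2ak3, the endoplasmic reticulum kinase PERK, had 5 counts in all, and Eif2ak4, the amino acid sensor GCN2, had 17.2 RPM in MOG KO replicate 2 and at most 1.39 RPM elsewhere.

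The 13 eIF3 genes encode the scaffold that holds the small subunit, the other factors and the mRNA together, and 10, 10 and 6 of them were present in WT and 10, 11 and 8 in MOG KO. Eif3f and Eif3h alone were present in all 6 libraries. Eif3f (Entrez 66085, chromosome 7, 108934417 to 108942951) had 341, 242 and 251 RPM in WT against 289, 315 and 358 RPM in MOG KO (log2 change 0.15 ± 1.16). Eif3h (Entrez 68135, chromosome 15, 51786558 to 51865523) had 286, 162 and 573 RPM in WT against 338, 710 and 522 RPM in MOG KO (log2 change 0.52 ± 0.86). The genotypes overlapped for both.

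The eIF3 genes with the largest values in either direction were those near 0 in several libraries. Eif3m (Entrez 98221, chromosome 2, 104999656 to 105017080) had 2.58, 3.58 and 0.85 RPM in WT against 182, 218 and 0.29 RPM in MOG KO. It was high in 2 MOG KO libraries and lowest of all in the third, with a log2 fold change of 5.79 ± 2.66 (95% interval -0.42 to 11.99, adjusted p = 1 in edgeR). In DESeq2 its adjusted p was 0.0459, and that tool called 2 of the 39 members to which it gave an adjusted p, Eif3m and Eif1b, against 16% of all genes.

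Eif3c had 49.7, 301 and 820 RPM in WT against 0.693, 1.61 and 64.6 RPM in MOG KO (log2 change -4.23 ± 2.4), and Eif3a, the largest subunit, had 816, 303 and 0.85 RPM in WT against 25.2, 48.2 and 0.29 RPM in MOG KO (log2 change -3.93 ± 2.61). For Eif3c the WT value of replicate 1 lay below the MOG KO value of replicate 3, and for Eif3a WT replicate 3 lay below 2 MOG KO libraries, so the groups overlapped for both. Eif3g had 2.94, 66.9 and 0.283 RPM in WT against 0.231, 213 and 225 RPM in MOG KO (log2 change 2.7 ± 2.73). The adjusted p was 1 in edgeR for all 3. Eif3b, Eif3d, Eif3e and Eif3k were each present in 5 libraries: Eif3b, Eif3d and Eif3k were below 10 RPM in WT replicate 3 (0 to 1.13 RPM) and Eif3e in MOG KO replicate 3 (2.03 RPM). Eif3i and Eif3l were present in 4 libraries and Eif3j1 in 2. Of the 13 log2 fold changes 9 were positive and 4 negative, with a median of 0.52.

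eIF4F binds the cap through eIF4E, unwinds the mRNA through eIF4A and holds both on the scaffold eIF4G. Eif4e had 2.94, 325 and 0.283 RPM in WT against 460, 108 and 111 RPM in MOG KO (log2 change 1.04 ± 2.39, 0.11 without MOG KO replicate 1, 7.1 without WT replicate 2 and 6 with the replicate block). Eif4g1 had 8.83, 2.01 and 1053 RPM in WT against 405, 692 and 631 RPM in MOG KO (log2 change 0.51 ± 1.84, 6.75 without WT replicate 3 and -0.02 without either of the other WT libraries). Eif4a1 had 2.94, 332 and 547 RPM in WT against 276, 261 and 352 RPM in MOG KO (log2 change -0.1 ± 1.65), with a sign that turned to positive in limma-voom (1.3), with the replicate number as a block (0.96) and without WT replicate 3 (0.86). In these 3 genes every MOG KO value was 108 RPM or more, while the WT values ran from 0.283, 2.01 and 2.94 RPM up to 325, 1053 and 547 RPM, so the groups overlapped. The adjusted p was 1 in edgeR for each.

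Counted together, Eif4e, Eif4a1 and Eif4g1 were all present in 3 of 3 MOG KO and 0 of 3 WT libraries. With either helicase (Eif4a1 or Eif4a2) and either scaffold (Eif4g1 or Eif4g3) allowed, the count was 3 of 3 MOG KO and 1 of 3 WT libraries. These combinations were chosen after the values were seen and have no test. How often other genes split the libraries in this way was not counted. Paralogs of the cap binder were not allowed. In WT replicate 3 Eif4e had 0.283 RPM, while its paralog Eif4e3 had 361 RPM beside Eif4a1 at 547 RPM and Eif4g1 at 1053 RPM. The eEF1 set of Eef1a1, Eef1b2, Eef1d and Eef1g was complete in 2 libraries of each genotype.

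The other eIF4 genes varied as much within a genotype. Eif4a2, the second helicase, had 408 to 889 RPM in 5 libraries and 1.85 RPM in MOG KO replicate 1, and Eif4h, which stimulates the helicase, had 145 to 454 RPM in 5 and 2.27 RPM in WT replicate 3. Eif4g2, a relative of eIF4G that does not bind eIF4E, had 849, 521 and 772 RPM in WT against 1282, 7.34 and 99.1 RPM in MOG KO (log2 change -0.75 ± 1.4). Eif4a3, the helicase of the exon junction complex, had 221, 0.447 and 428 RPM in WT against 152, 1.15 and 1.45 RPM in MOG KO (log2 change -2.27 ± 2.73). MOG KO libraries held both the highest and the lowest value of Eif4g2. Eif4g3 had 1.1, 228 and 0.85 RPM in WT against 17.8, 9.86 and 0.29 RPM in MOG KO, and its log2 fold change of -3.04 ± 2.71 was 3.16 without WT replicate 2. The adjusted p was 1 in edgeR for these 3. Eif4b and Eif4e2 were present in 4 libraries, Eif4e3 in 5, and Eif4e1b had 0 counts.

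The proteins that bind eIF4E and hold it from the scaffold were present in at most 4 libraries each. Eif4ebp1, a target of mTOR, had 118, 78.7 and 0 RPM in WT against 151, 0.229 and 134 RPM in MOG KO (log2 change 0.53 ± 2.66). Eif4ebp2 (Entrez 13688, chromosome 10, 61428491 to 61452661) had 0.368, 178 and 31.2 RPM in WT against 6.01, 3.67 and 2.32 RPM in MOG KO (log2 change -4.14 ± 2.41). For Eif4ebp2, 2 WT libraries lay above all MOG KO libraries and WT replicate 1 below them. Eif4enif1, which carries eIF4E into mRNA storage bodies, had 93.5, 81.2 and 1.13 RPM in WT against 0.693, 76.6 and 506 RPM in MOG KO (log2 change 1.77 ± 2.47, -0.52 without MOG KO replicate 3). The adjusted p was 1 in edgeR for the 3 genes. Eif4ebp3 had 10 counts, all in WT replicate 3, and 62.8% of the 100-base windows of its transcripts also occur in those of another gene.

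Over all members, 46 were tested, the other 16 having been removed by the filter on low counts, and 0 passed an adjusted p of 0.05 in edgeR, as did 0% of all 4088 genes tested. At an unadjusted p under 0.05 there were 0 members, against 5.11% of all genes, and limma-voom called 0 members and 0% of genes. Positive log2 fold changes were found in 30 of 46 members and 52.1% of all tested genes, with medians of 0.26 and 0.06. The SE of members ran from 0.29 to 3.03 with a median of 2.34, so that only differences of many fold could have been told from the spread between libraries for most of them. In the 9 members present in all 6 libraries, 9 values were positive (median 0.45), and 6 to 9 were positive over the alternative fits, 7 of 9 with DESeq2 size factors and 6 of 9 in DESeq2; among all 704 genes present in all 6 libraries 381 were positive, with a median of 0.05.

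**Figure D4:**
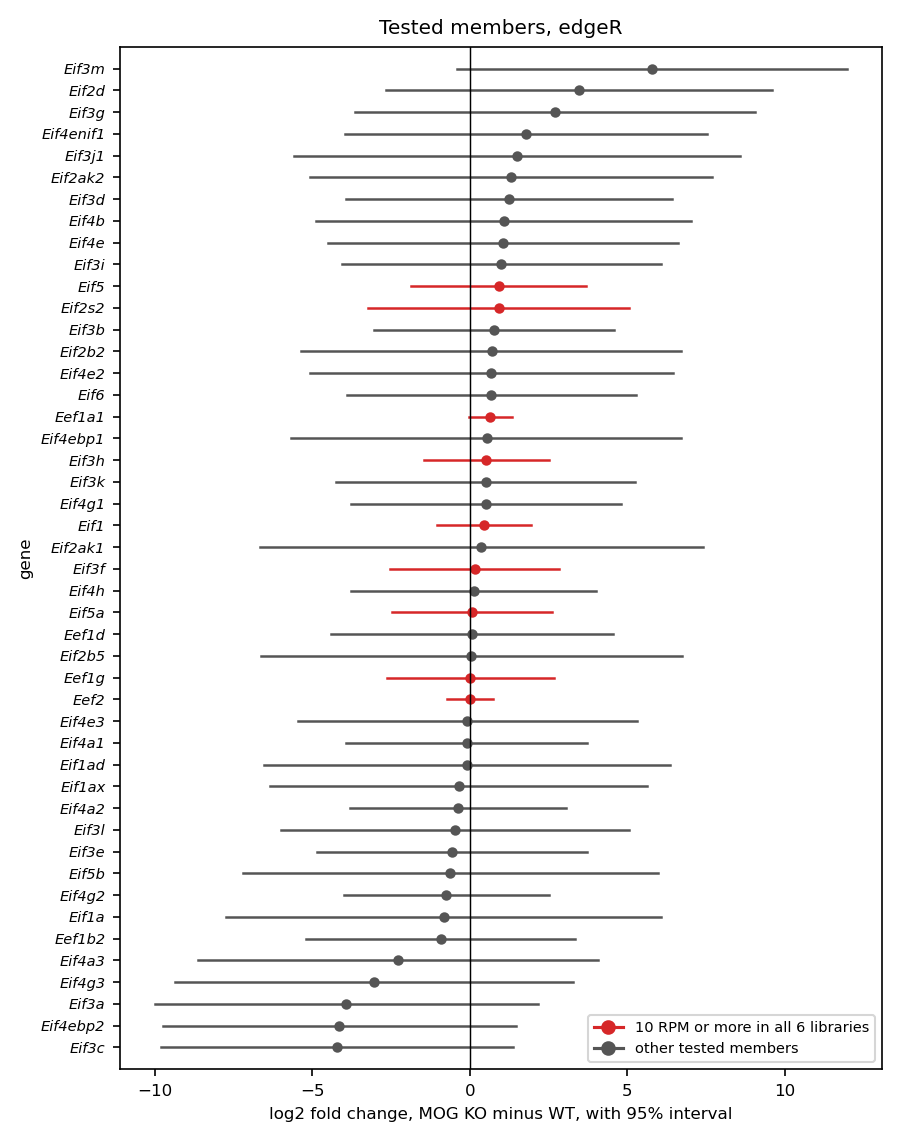
Log2 fold change (MOG KO minus WT, points) with its 95% interval (lines) for the 46 tested members, sorted by value, with the 9 members present in all 6 libraries in red. Every interval includes 0, and those of Eef2 and Eef1a1 are the narrowest.

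As a share of all counts, the members took 1.2%, 1.31% and 1.44% of the WT libraries and 1.64%, 1.78% and 1.65% of the MOG KO libraries, or 1.31% ± 0.12 and 1.69% ± 0.0803 (SD, n = 3 per group). The genotypes did not overlap on this scale. They did overlap when counts were divided by the library size scaled by trimmed means (TMM), with 1.12%, 1.22% and 1.66% in WT and 1.55%, 1.81% and 1.71% in MOG KO. Eef1a1 alone made up 20.1% to 42% of the members' counts. Without it the shares were 0.956%, 0.862% and 1.03% in WT and 1.19%, 1.03% and 1.06% in MOG KO. The difference of the means was 0.376 percentage points with Eef1a1 and 0.146 without it. No test is given for this sum, since the gene family was taken up with earlier results of these data known, although its rule reads symbols alone.

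Levels of different genes were compared per length of annotated exons, as RPM per kilobase. Eef1a1 stood highest, with a median of 2486 RPM per kilobase and a lowest library of 1340, above the highest library of every other member. Eif1 (median 407, range 203 to 732), Eef2 (362, 275 to 383) and Eif3h (332, 125 to 548) followed and overlapped each other. Below them by median, Eif4a1 (171), Eef1g (169), Eif4a2 (153), Eif3e (151), Eif3d (150), Eif4h (149) and Eif5a (134) had ranges that overlapped each other. Of these, Eef1g (83.9 to 233) and Eif5a (109 to 161) were read in every library, while the others reached down to between 0 and 1.66 RPM per kilobase. The medians of Eif4a1 and Eef1g lay above the highest library of Eif4h (167) and of Eif5a (161). Reads shared with copies elsewhere can move these levels: over 20% of the 100-base windows of the transcripts of 6 members, Eif4ebp3, Eif3j1 (44.2%), Eif2s3x (33.7%), Eef1g (32.4%), Eif3d (32%) and Eif4a1 (22.6%), also occur in transcripts of another gene, and 16.3% of those of Eef1a1 do.

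Other genes of translation control, 49 on a list of release factors, poly(A)-binding proteins, eIF4E kinases, stress effectors and mitochondrial factors of which 48 are in the tables, were examined beside the members. Of these 5 were present in all 6 libraries, 13 in exactly 1 and 8 in none, against 9, 3 and 9 of the 62 members. Among 20 tested, 0 passed (adjusted p of 0.977 or more in edgeR), 13 values were positive and 7 negative, and the median was 0.13. Mcts1, which works with Denr in reinitiation and recycling, had 7.73, 0.224 and 0.283 RPM in WT against 216, 147 and 80.6 RPM in MOG KO. All its MOG KO values lay above all its WT values, the only such gene among the 20, where 5.97% of all tested genes had MOG KO higher without overlap (log2 change 5.71 ± 2.46, adjusted p = 0.977 in edgeR). DESeq2 gave Mcts1 an adjusted p of 0.039 and called 6 of the 26 listed genes to which it gave an adjusted p, against 16% of all genes.

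Mknk1, a kinase of eIF4E, had 0.736, 21.7 and 0.283 RPM in WT against 269, 220 and 0.29 RPM in MOG KO (log2 change 4.42 ± 2.86). Abcf1, an ATPase that binds eIF2, had 103, 7.38 and 192 RPM in WT against 7.63, 745 and 406 RPM in MOG KO (log2 change 1.84 ± 1.98). In both genes 1 MOG KO library lay at the level of the lowest WT libraries. Ddx3x, an RNA helicase of initiation, had 246, 10.5 and 1.7 RPM in WT against 1.16, 1.38 and 11.9 RPM in MOG KO (log2 change -4.14 ± 2.56, -0.38 without WT replicate 1). Rps6kb2, an S6 kinase, had 69.5, 0 and 372 RPM in WT against 0, 15.8 and 0 RPM in MOG KO (log2 change -4.93 ± 3.63), and Mtif3, a mitochondrial initiation factor, had a log2 fold change of -4.71 ± 3.19 with 152 RPM in WT replicate 3 and at most 6.67 RPM elsewhere, and -0.43 without that library. The adjusted p was 1 in edgeR for these 5 genes.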

How the data were processed

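RNA-seq libraries of lymph node Tregs were grouped by their titles as WT (n = 3) and MOG KO (n = 3). One deposited table gives an unnormalised exon read count for every gene, and the deposited RPM table holds the same counts divided by each library's total (differences under 1e-06). Per the labels' protocols, cDNA was made with the SMARTer V3 kit, libraries with NexteraXT, and sequencing gave unpaired reads of 100 bases. STAR 2.3.1, R 3.2.2 and mm10 are named per the submitters' processing notes. How reads were assigned to genes (function, gene models, strand, multiple matches) is not stated in the labels.

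Counts were fitted over the whole table with edgeR 4.0.16 in R 4.3.3, with filterByExpr (4088 of 23725 genes kept, 17.2%), TMM, robust quasi-likelihood and genotype alone, at a Benjamini-Hochberg adjusted p of 0.05. SE is the absolute log2 fold change over the square root of F, and 95% intervals use the moderated degrees of freedom. The fit was tested on simulated data. Alternatives were DESeq2 size factors, no filter, a stricter filter (50 counts in at least 3 libraries), limma-voom (limma 3.58.1), DESeq2 1.42.0, the replicate number as a block, and leaving out each library. Exon lengths, coordinates and shared windows came from GENCODE M21 (GRCm38), matched for 62 members.

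The gene family and the lists were chosen with earlier results of these data known, although the member rule reads symbols alone. Named genes are 15 listed by name, every member at 10 RPM or more in all 6 libraries, tested members whose groups do not overlap, and the 6 of smallest unadjusted p in each direction, plus 3 in each direction of the list of other genes. Paralogs and other members are given by level, and the combinations of eIF4F genes were chosen after the values were seen.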

Additional observations from a re-analysis of the deposited data

How the results depend on the processing

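In edgeR and limma-voom the count of members past the threshold stayed at 0 under every alternative. DESeq2 put past it 2 of 39 members, 6 of 26 genes of the list of other translation genes and 745 of 4648 genes of the whole table (16%). The members' median log2 fold change, 0.26, was positive under every alternative, 0.53 in limma-voom and 0.11 to 0.5 when 1 library was left out. The other list's median, 0.13, was -0.52 in limma-voom, -0.5 with the replicate block and -0.25 to 0.57 when 1 library was left out. The cause of these differences was not tested. Members present in all libraries numbered 10 to 14 when 1 library was left out. The difference in the share of counts taken by the whole family was 0.146 percentage points without Eef1a1, and 0.317 to 0.437 when 1 library was left out.

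Signs that turned under other settings were those of Eef2 (-0.03), Eef1g (-0.03) with DESeq2 size factors, Eef1g (0, a small negative value) with the stricter filter, Eef2 (-0.12), Eef1g (-0.17), Eif5a (-0.08) and Eif4g1 (-0.06) in DESeq2, Eef1g (-0.08) and Eif4a1 (1.3) in limma-voom, and Eif4a1 (0.96) with the replicate block. Leaving out 1 library gave Eef1g -0.3 to 0.39, Eef2 -0.12 to 0.13, Eif2ak1 -2.34 to 8.82, Eif2s2 -0.23 to 1.44, Eif4a1 -0.66 to 0.86, Eif4ebp1 -0.04 to 1.27, Eif4enif1 -0.52 to 2.38, Eif4g1 -0.02 to 6.75, Eif4g3 -3.8 to 3.16 and Eif5a -0.02 to 0.31. The other named genes kept their sign when 1 library was left out, some over wide ranges: Eif4e 0.11 to 7.1, Eif2ak2 0.69 to 7.69, Eif3g 2.11 to 6.47, Eif3c -8.5 to -2.96, Eif4a3 -7.47 to -1.09, Eif4g2 -3.78 to -0.18, Ddx3x -6.05 to -0.38, Mtif3 -10.89 to -0.43 and Rps6kb2 -12.27 to -2.68. Samples with the same replicate number did not deviate together (r of -0.022, -0.0022 and -0.018 across genes), so the numbers were not taken to pair them, and with the replicate block 0 members and 0 genes passed. Depth limits the members present in no library, whose counts of 0 to 10 cannot tell low expression from none.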
